A study of Homo sapiens with 48 samples.

Results

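The light step of a photouncaging experiment was examined on its own, by setting the 12 light alone libraries against the 12 DMSO libraries of the same time point. These 24 libraries were chosen by their labels and column names out of 48. HEK293T cells, a human embryonic kidney line, had been transfected in all arms with a plasmid for the nuclear cap-binding protein NCBP1 fused to the Halo tag, so both arms overproduced NCBP1-Halo on top of the endogenous gene. In the full reaction, T-REX, a caged form of the lipid-derived electrophile HNE is bound to the Halo tag and released by ultraviolet light. RNA was taken 3, 6 and 12 h after the reaction, with 4 libraries per arm and time. The labels name the arm UV control only, and the study's methods define it as having both the caged probe and light. Probe alone is defined there by the probe with no light, and DMSO by the solvent with no light. Read to the letter, the methods would make light alone the same as T-REX, yet the study lists it as a control for T-REX. Whether the light alone cells had received the probe could not be settled from the labels and methods, and light alone is used here as the name of the arm. The study calls the sets independent biological replicates, but the labels do not tie them to separate cultures. The p-values therefore measure the spread between libraries, in the main test over all arms, T-REX and probe alone included.

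Of the 7 genes called for the mean effect of light alone, 4 are known targets of a pair of ligand-activated transcription pathways. The lists of those targets were drawn up with earlier results of these data known, so this share is a description and no test. The aryl hydrocarbon receptor (AHR) is a cytosolic sensor of polycyclic aromatic compounds and indoles that is held by HSP90 and, once bound, pairs with ARNT in the nucleus and switches on genes of oxidative metabolism such as CYP1A1 and CYP1B1, together with its own brake TIPARP. Retinoic acid acts through the receptors RARA, RARB and RARG paired with RXR, and among its best-known direct targets are RARB itself, the retinaldehyde reductase DHRS3, the CYP26 enzymes that clear retinoic acid, and HOX genes. HEK293 cells are an embryonic kidney line with neuronal traits, and 6 of the 7 markers of that line were in the count tables (PAX2 was not), while none of the 4 markers of leukocytes, hepatocytes, endothelium or fibroblasts was.

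The DNA before the start sites of 2 of these genes is shown because it carries the classical recognition letters of those receptors. The retinoic acid receptor binds a direct repeat of hexamers spaced by 5 bases, searched here on either strand as a pair of hexamers AGGTCA in which the first base may also be G and the third T, with 5 bases between. One of the 4 RARB start sites in RefSeq (GRCh38.p14, chr3:25428013-25428262, plus strand, the 250 bases before the start) holds it at positions -53 to -37 counted from the start. The AHR core GCGTG, searched on either strand, was found at 1 of the 3 TIPARP start sites (chr3:156674340-156674589, plus strand), at -208 to -204 and -142 to -138 on the minus strand. Capitals mark the hexamers in RARB and the core in TIPARP, where the plus strand shows its complement CACGC.
RARB: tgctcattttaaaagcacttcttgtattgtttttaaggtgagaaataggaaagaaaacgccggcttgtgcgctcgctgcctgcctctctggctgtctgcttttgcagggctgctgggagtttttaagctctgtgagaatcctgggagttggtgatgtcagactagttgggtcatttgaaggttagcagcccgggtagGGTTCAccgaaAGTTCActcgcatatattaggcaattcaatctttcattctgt
TIPARP: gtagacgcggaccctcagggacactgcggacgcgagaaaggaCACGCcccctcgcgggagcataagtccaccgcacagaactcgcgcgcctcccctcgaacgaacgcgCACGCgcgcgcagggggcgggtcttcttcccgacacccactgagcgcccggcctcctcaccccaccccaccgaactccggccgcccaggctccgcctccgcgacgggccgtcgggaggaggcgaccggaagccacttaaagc
The spaced repeat is rare, with 26 of 35116 windows of that length (0.074%) holding it, whereas GCGTG is common, with 11313 windows (32.2%). The repeat was not found at the 3 start sites of DHRS3, at the 3 of TIPARP or at the 4 of SERPINB6. The single start sites of FOXO3B, LRRC39 and the retinoic acid target HOXA4 also lacked it. The AHR core was found at all 4 start sites of SERPINB6. It was also found at 1 of the 4 of RARB, which was lower with light alone. The start sites of DHRS3, FOXO3B, LRRC39 and HOXA4 did not hold the AHR core. No start sites of CYP1B1 and HMOX1 were in the promoter set used here, so these genes were not searched. A match of letters is a description of the window and says nothing of binding in these cells.

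Library totals ran from 26482339 to 31999611 counts over the 24 libraries, and 14685 genes were tested at every time. Light alone at 6 h and DMSO at 12 h were the most variable groups, with median SDs of 0.131 and 0.141 on the log2 scale against 0.0738 to 0.0991 in the other 4. Replicate 3 lay farthest from the median of the other replicates in both, as it did in every other group but light alone at 3 h. NCBP1, plasmid and endogenous copies together, took 3.09 to 6.97% of the counts. At 3 h it stood at 61370 ± 6536 CPM (normalised counts, each library being put on a common total after TMM scaling, as mean ± SD, n = 4) with light alone and 53850 ± 6155 with DMSO. At 6 h the order was the opposite, at 41700 ± 8911 against 53740 ± 5904, and at 12 h it stood at 40520 ± 6846 against 34640 ± 4554. The arms overlapped at all 3 times, and over the 3 times NCBP1 did not pass an exact permutation test of libraries within times (two-sided p = 0.935).

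Few genes differed between light alone and DMSO. A gene is called here when its p from the quasi-likelihood test of edgeR, after Benjamini-Hochberg adjustment, is at most 0.05. At 3 h the retinoic acid receptor RARB was the 1 gene called, 0.00681% of those tested, and it was lower with light. At 6 h the AHR target TIPARP was the 1 gene called (0.00681%), and it was higher. At 12 h both were called in those directions, 0.0136% of the genes. For the mean effect over the 3 times, with time as a factor in a fit of all 48 libraries, 7 genes were called (0.0477%), namely TIPARP, CYP1B1, FOXO3B, SERPINB6 and LRRC39 higher and RARB and DHRS3 lower. At an unadjusted p of at most 0.05 1143 genes passed at 3 h, 2109 at 6 h, 1525 at 12 h and 1164 for the mean. Fitting all 48 libraries also for the single times, chosen after seeing the data, called 3 genes at 3 h (0.0204%), then 12 at 6 h (0.0817%) and 4 at 12 h (0.0272%). Of the genes described below, that fit added CYP1B1 at 6 h and POU3F2 at 12 h. DESeq2 called 20, 133 and 20 genes at the 3 times, and with the 2 deposited factors of unwanted variation (RUV) as covariates 858, 1797 and 1022 were called, and 289 for the mean, with the 7 genes among them.

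The size of the effect was bounded as well. From limma-trend on log2 CPM, the 95% interval of the mean effect lay within a 1.5-fold change either way for 14474 genes (98.6%). Single times gave wider intervals, with 82.1% of genes within that range at 3 h, then 81.1% at 6 h and 85.5% at 12 h. A place outside these shares does not by itself show a change of 1.5-fold, since the interval may only reach past that bound. RARB, described below, was outside for the mean, with an interval from -0.627 to -0.432 on the log2 scale. The number of genes whose whole interval lay beyond 1.5-fold was 0 for the mean and at most 1 at a single time. Not a single gene had its 4 light alone libraries all above (0%) or all below (0%) the 4 DMSO libraries at every one of the 3 times. Within a time, the arms did not overlap for 331 genes higher and 441 lower at 3 h (5.26% of genes), 355 and 383 at 6 h (5.03%), and 275 and 293 at 12 h (3.87%).

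Among the retinoic acid targets, RARB, a receptor that is itself switched on by retinoic acid, had the smallest p of any gene. At 3 h the light alone libraries held 17.9, 16.5, 14.3 and 15.8 CPM and the DMSO libraries 26.6, 25.6, 23.96 and 25.1. At 6 h they held 29.5, 33.9, 32.1 and 26.7 against 36.1, 39.1, 34.1 and 32.7. At 12 h they held 25.6, 25.7, 27.2 and 25.5 against 37.97, 43.02, 49.7 and 41.3. Every light alone library lay below the DMSO mean of its time, and the arms were apart at 3 h and 12 h and met at 6 h. The log2 fold change was -0.64 at 3 h (1.56-fold lower, adjusted p = 0.0051, edgeR), -0.22 at 6 h (adjusted p = 0.222) and -0.73 at 12 h (1.66-fold lower, adjusted p = 8.26e-05). Dropping light alone replicate 3 took away the 3 h call (adjusted p = 0.0586). For the mean it was -0.53 (standard error 0.05, adjusted p = 2.11e-10, edgeR). In an exact permutation test of libraries within times p was 1.17e-05, or 3.5e-05 adjusted over the 3 genes so tested. That adjustment does not cover how these genes were chosen, and the same libraries also entered the edgeR fit. At a single time that test cannot go below 0.0286, which RARB reached at 3 h and 12 h.

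DHRS3, which turns retinaldehyde back into retinol and is induced by retinoic acid, was the other gene called lower. Its light alone libraries held 5.25, 6.15, 6.08 and 4.15 CPM at 3 h against 5.43, 6.15, 7.55 and 7.22 with DMSO. At 6 h they held 7.10, 6.94, 5.68 and 8.09 against 7.76, 10.7, 11.1 and 7.71, and at 12 h 8.0, 8.11, 9.11 and 7.602 against 11.9, 12.0, 9.71 and 11.9. The arms overlapped at 3 h and 6 h and were apart at 12 h, and each of the 12 light alone libraries lay below the DMSO mean of its time. The mean log2 fold change was -0.39 (standard error 0.08, adjusted p = 0.0203, edgeR). This call did not hold without any 1 of 6 libraries (adjusted p from 0.0515 to 0.0834), without any 1 of the 3 times (0.0595 to 0.623), or in the fit of only the 24 libraries (0.132).

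Of the 19 retinoic acid targets listed, 9 were in the tables, and 8 of those 9 had a negative mean effect. RARB and DHRS3 were the 2 called, beside 0.0477% of all genes called. The list's median log2 fold change was -0.23 for the mean, beside 0.00 over all genes. By time the median lay farthest below 0 at 6 h, with -0.40, and nearer to 0 at 3 h (-0.06) and 12 h (-0.08). The gap depended on single libraries, with -0.33 at 6 h without light alone 6h replicate 3 and -0.19 at 12 h without DMSO 12h replicate 3. HOXA4, a homeobox gene, stood at -0.35 for the mean (standard error 0.15, adjusted p = 0.54, edgeR) from a mean of 44.7 counts per library. RARG, at 0.17, was the 1 member with a positive value, and RARA, CYP26B1, HOXB4 and CRABP2 lay between -0.23 and -0.01. The same list was split 3 higher and 6 lower at 3 h, 1 and 8 at 6 h, and 3 and 6 at 12 h. The 10 genes tested that make retinoic acid or work with its receptors, such as RDH10, ALDH1A2, RXRA and NCOR1, had 0 calls and effects from -0.13 to 0.05, with a median of -0.01.

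TIPARP, a mono-ADP-ribosyltransferase induced by AHR that in turn dampens it, had the smallest p among the genes called higher. At 3 h the light alone libraries held 104.8, 96.0, 96.5 and 89.6 CPM and the DMSO libraries 97.95, 95.3, 89.9 and 93.5, and the arms overlapped. At 6 h the values were 105.8, 103.6, 113.6 and 93.4 against 78.7, 72.6, 61.2 and 78.3, with every light alone library above every DMSO library. At 12 h they were 89.2, 84.4, 81.7 and 77.1 against 56.4, 61.8, 57.1 and 53.8, again apart. The DMSO mean itself went from 94.1 CPM at 3 h to 57.3 at 12 h, while the light alone mean went from 96.7 to 83.1. The log2 fold change was 0.04 at 3 h (standard error 0.07), 0.52 at 6 h (1.43-fold, adjusted p = 0.0261, edgeR) and 0.53 at 12 h (1.45-fold, adjusted p = 8.26e-05). TIPARP was not called at 6 h when any 1 of 5 of the 8 libraries was dropped (adjusted p up to 0.174) or in the fit of the 8 libraries alone (adjusted p = 0.401), while the call at 12 h held without any 1 library. For the mean the log2 fold change was 0.37 (standard error 0.04, adjusted p = 3.06e-07, edgeR). The exact permutation p was 0.000105, or 0.000157 adjusted over 3 genes, which again does not cover how they were chosen.

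CYP1B1, a monooxygenase of steroids and aromatic compounds and a standard readout of AHR, had a like course at a lower level. At 3 h it held 9.99, 7.95, 9.64 and 10.4 CPM with light alone and 9.50, 8.65, 7.68 and 8.01 with DMSO. At 6 h it held 13.3, 17.1, 17.5 and 11.1 against 10.4, 9.47, 9.72 and 9.23, and at 12 h 12.1, 11.4, 12.4 and 10.9 against 7.43, 9.94, 8.54 and 8.70. The arms overlapped at 3 h and were apart at 6 h and 12 h. The mean log2 fold change was 0.40 (standard error 0.07, adjusted p = 0.0037, edgeR), and the call was lost when either 6 h or 12 h was left out (adjusted p = 0.097 and 0.185). CYP1B1 overlaps RMDN2 and antisense transcripts in GENCODE 29, and the libraries are stranded but the strand setting of the counting was not given in the sources used here.

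Of the 9 AHR targets listed, 5 were in the tables and 2 were called, both higher, beside 0.0477% of all genes. The median mean effect of the 5 was 0.06 beside 0.00 over all genes, and the list, like the retinoic acid one, was drawn up with earlier results of these data known. AHRR, the AHR repressor, NQO1, a quinone reductase, and NFE2L2, which encodes NRF2, had mean log2 fold changes from -0.00 to 0.06, none called. The receptor and its partners showed 0 calls, with AHR, ARNT, ARNT2, PTGES3, HSP90AA1 and HSP90AB1 between -0.08 and 0.09 for the mean.

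**Figure D1:**
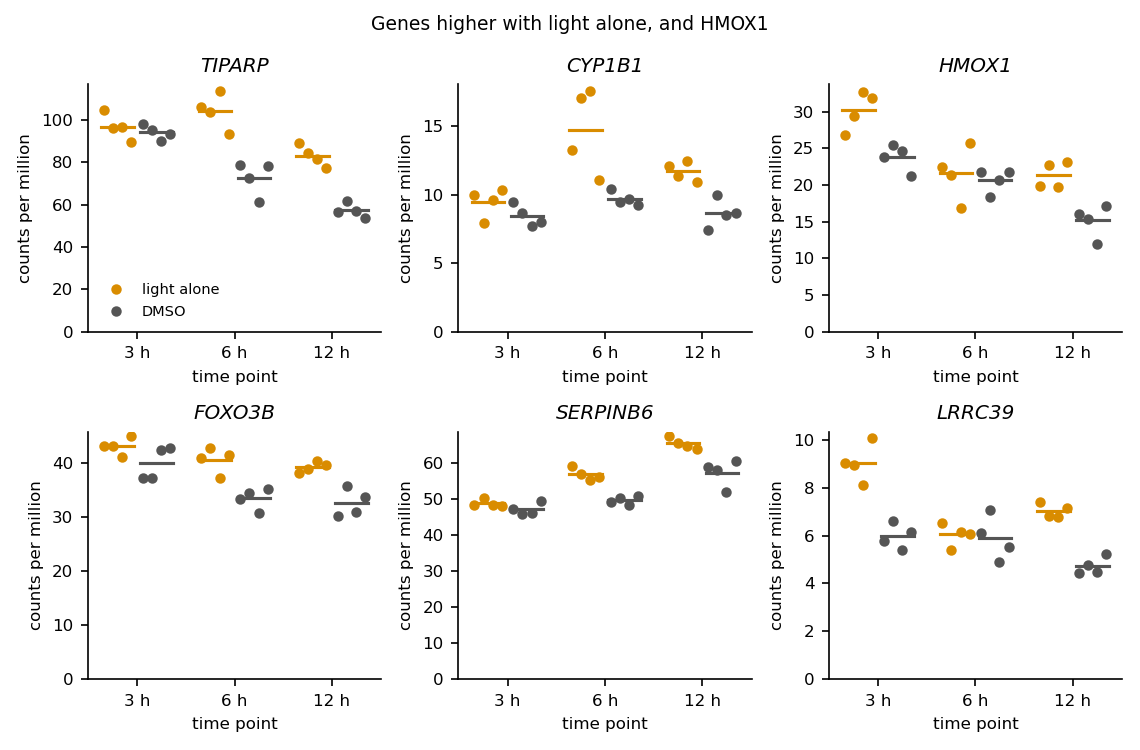
CPM (vertical axes, from 0) at 3, 6 and 12 h of the 5 genes called higher for the mean over times and of HMOX1, which was not called, with 1 point per library (orange light alone, grey DMSO, 4 each) and a bar at the group mean. TIPARP, CYP1B1, FOXO3B and SERPINB6 are apart at 6 h and 12 h, LRRC39 and HMOX1 at 3 h and 12 h.

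FOXO3B, SERPINB6 and LRRC39 were the other genes called higher. FOXO3B, a processed pseudogene of the stress-response factor FOXO3 in GENCODE 29, stood at 40.6 ± 2.37 CPM with light alone and 33.5 ± 1.95 with DMSO at 6 h (n = 4), and at 39.3 ± 0.956 against 32.6 ± 2.57 at 12 h. Its mean log2 fold change was 0.22 (standard error 0.04, adjusted p = 0.00875, edgeR), while FOXO3 itself stood at -0.01 and ZNF286B, whose locus holds FOXO3B, at 0.09, neither called. FOXO3B was not called when 6 h or 12 h was left out (adjusted p = 0.0683 and 0.432). Reads shared with FOXO3 or ZNF286B cannot be told apart from FOXO3B reads in a table of counts, so this gene's value is uncertain.

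SERPINB6, an intracellular inhibitor of serine proteases, had the smallest called effect. It held 59.3, 57.0, 55.5 and 56.3 CPM at 6 h with light alone against 49.3, 50.3, 48.3 and 50.9 with DMSO, and 67.7, 65.6, 64.8 and 64.0 against 58.9, 58.2, 52.0 and 60.5 at 12 h. The arms were apart at both times and close at 3 h (48.8 ± 1.09 against 47.2 ± 1.598, n = 4). The mean log2 fold change was 0.15 (standard error 0.03, 1.11-fold, adjusted p = 0.00875, edgeR), and it was no longer called when only the 24 libraries were fitted (adjusted p = 0.0826), without 6 h (0.0914) or without 12 h (0.622). SERPINB6 was also called higher with probe alone against DMSO, where no light was used (0.11, adjusted p = 0.0312).

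LRRC39, a leucine-rich repeat protein known from striated muscle, was measured with 118 to 269 counts per library. It held 9.02, 8.95, 8.11 and 10.1 CPM at 3 h with light alone against 5.79, 6.59, 5.38 and 6.14 with DMSO. At 6 h it stood at 6.05 ± 0.481 against 5.90 ± 0.940 (n = 4), and at 12 h it held 7.42, 6.81, 6.79 and 7.17 against 4.44, 4.78, 4.46 and 5.24. The arms were apart at 3 h and 12 h and overlapped at 6 h, unlike TIPARP and CYP1B1, which overlapped at 3 h. Its mean log2 fold change was 0.40 (standard error 0.08, adjusted p = 0.00875, edgeR), and the call was lost without 3 h (adjusted p = 0.391) or without 12 h (0.803). The gene overlaps TRMT13 on the opposite strand.

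HMOX1, the stress-inducible heme oxygenase, was next in order of p and was not called. At 3 h it held 26.8, 29.4, 32.7 and 31.9 CPM with light alone and 23.9, 25.4, 24.7 and 21.3 with DMSO, and at 12 h 19.8, 22.8, 19.8 and 23.1 against 16.1, 15.4, 12.0 and 17.2. The arms were apart at both times and overlapped at 6 h, where light alone replicate 3 was lowest at 16.9 CPM. The mean log2 fold change was 0.30 (standard error 0.07, adjusted p = 0.114, edgeR). Without light alone 6h replicate 3 it was 0.34 with an adjusted p of 0.0113.

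The 7 genes were then read in T-REX and probe alone, which differ by light in cells that received the probe. They share no library with light alone and DMSO. Light also releases HNE in T-REX, so light and HNE release cannot be told apart in this pair. Below, with and without the probe names these pairs, a reading that holds only if the light alone cells had none. That comparison called 704 genes (4.79%) for the mean over times, and 2 of the 7 were among them, RARB and DHRS3, both lower. RARB in T-REX held 20.02, 20.9, 17.4 and 17.6 CPM at 3 h against 38.4, 42.8, 33.96 and 33.8 with probe alone, and 21.2, 18.6, 22.4 and 22.6 at 12 h against 48.3, 58.2, 48.5 and 51.1. These were apart without overlap, and the mean log2 fold change of -1.14 (standard error 0.05) was larger than with light alone. The difference of the light effects, -0.61 (standard error 0.07), was itself called (adjusted p = 9.94e-08, edgeR). Probe alone itself had more RARB than DMSO, by 0.47 on the log2 scale (adjusted p = 5.29e-09), so the levels of the unlit arms, sampled at the same 3 times, differed between the pairs. NCBP1 was higher there too (0.55, adjusted p = 0.000122), and its part in the RARB difference was not tested.

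DHRS3 stood at -0.51 in T-REX against probe alone (standard error 0.08, adjusted p = 1.76e-05), and the difference from light alone was not called (-0.12, standard error 0.11, adjusted p = 0.91). HMOX1, not called with light alone, was called higher there (0.30, standard error 0.07, adjusted p = 0.00475).

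TIPARP and CYP1B1 differed from this. TIPARP in T-REX held 65.0, 68.5, 75.5 and 60.5 CPM at 6 h against 81.8, 72.3, 74.7 and 68.0 with probe alone, and 64.2, 74.9, 65.7 and 67.6 at 12 h against 52.9, 55.2, 59.1 and 60.8. The arms overlapped at 6 h and every T-REX library was above every probe alone library at 12 h, and its mean log2 fold change was -0.01 (standard error 0.04). CYP1B1 stood at -0.14 (standard error 0.07, adjusted p = 0.273). The differences from light alone, -0.37 for TIPARP and -0.54 for CYP1B1, were called (adjusted p = 0.000381 and 0.0025, edgeR). FOXO3B, SERPINB6 and LRRC39 stood at 0.11, 0.06 and 0.15, none called, and their differences from light alone were not called either (adjusted p = 0.734, 0.609 and 0.56).

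Over all genes, the light effect, which in T-REX includes HNE release, differed with and without the probe for 59 (0.402%). Of these, 23 were higher and 36 lower in the cells with the probe. The smallest p belonged to TXNIP, the thioredoxin-binding arrestin, which stood at -0.06 (standard error 0.06) with light alone and -0.92 in T-REX against probe alone. RARB came next, followed by the kinase MAP2K6 (difference -0.48), the arrestin ARRDC4 (-0.45) and the unfolded protein response factor XBP1 (0.29). The mean light alone effects of MAP2K6, ARRDC4 and XBP1 lay between -0.03 and -0.01, none called. For MAP2K6 the single times gave -0.33 at 3 h, 0.21 at 6 h and 0.03 at 12 h, none called (adjusted p = 0.208, 0.25 and 0.926). The median light alone effect of the unfolded protein response list was -0.01.

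The effect of light alone was not the same at all times for 6 genes (0.0409%) by an F-test of the 3 effects. HERPUD1, an endoplasmic reticulum stress gene, stood at 0.33, -0.19 and -0.24 on the log2 scale at 3, 6 and 12 h (adjusted p for the difference 0.0141, edgeR). Its light alone libraries held 37.2, 46.5, 38.7 and 40.8 CPM at 3 h against 32.9, 32.3, 31.6 and 33.1, and at 12 h 27.2, 25.02, 22.9 and 27.7 against 31.2, 27.7, 32.4 and 30.2, so the order of the arms turned. UGT8, an enzyme of galactosylceramide synthesis, SLITRK5, a neuronal surface protein, and POU3F2, a neural transcription factor, shared another order, with values of -0.23, 0.31 and -0.37, of -0.23, 0.30 and -0.13, and of -0.17, 0.18 and -0.36 at the 3 times. ANKRD24 stood at 0.82, -0.61 and 0.19, from 49 to 157 counts per library. TIPARP was the sixth, through its flat value at 3 h. None of these effects but TIPARP's was called at a single time in the fits of 16 libraries, while POU3F2 at 12 h was called in the fit of all 48 (-0.35, adjusted p = 0.0439, edgeR). The number of such genes depended on single libraries, from 0 without light alone 3h replicate 2 or DMSO 3h replicate 2 to 535 without light alone 6h replicate 4, and was 0 in the fit of the 24 libraries alone (1969 at an unadjusted p of at most 0.05).

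Lists of stress and damage genes had 0 calls at any time and for the mean, beside the shares of all genes called given above. The p53 targets, genes of the response to DNA damage, were higher for 23 of 26 at 3 h (median log2 fold change 0.14) and lower for 24 of 26 at 6 h (-0.26). Whether p53 is active in these cells was not tested, so this list is no measure of damage here. The immediate early genes, such as JUNB and ZFP36, were higher for 22 of 24 at 3 h (0.24) and lower for 20 of 24 at 6 h (-0.29). JUNB, at a mean of 77.8 counts per library, stood at 1.01 at 3 h (standard error 0.81) and -1.10 at 6 h (standard error 0.27). Neither value was called (adjusted p = 0.771 and 0.153, edgeR). The medians over all genes were 0.01 and 0.00. Without light alone 6h replicate 3 the 6 h medians were -0.20 for p53 targets and -0.23 for immediate early genes. NCBP1 moved the same way as both lists at 3 h and 6 h, above DMSO and then below. At 12 h NCBP1 was above DMSO again (0.22, not called), while the medians were 0.03 for p53 targets and -0.04 for immediate early genes. The part of NCBP1 was not tested. For the mean over times both medians were within 0.03 of 0, and the largest effects were FAS at 0.06 and BBC3 at -0.18 among p53 targets.

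The heat shock genes, chaperones and their partners, all had a negative mean effect, 17 of 17 tested, with a median of -0.07, values from -0.25 (HSPE1, standard error 0.10) to -0.05 (FKBP4) and 6 at an unadjusted p of at most 0.05. None was called, and without light alone 6h replicate 3 one was. The mitochondrially encoded transcripts were lower for 12 of 15 (median -0.08, 8 at an unadjusted p of at most 0.05), from MT-ATP8 at -0.29 to MT-RNR1 at 0.19. They were split by time, with 13 lower at 3 h, 3 at 6 h and 14 at 12 h, and together took 7.49 to 9.8% of the counts. Nucleotide excision repair, the pathway that removes ultraviolet lesions, had 12 of 25 higher and a median of -0.00, with CETN2 at -0.25 (standard error 0.07, adjusted p = 0.337) and ERCC2 at 0.06 at its ends.

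The remaining lists were as quiet for the mean, though not all of them at single times. The NRF2 targets, antioxidant genes, were 10 higher and 9 lower (median 0.03, from TXN at -0.18 to HMOX1), and the interferon list was 3 and 3. Sterol synthesis was 6 higher and 17 lower (median -0.03, with SQLE at -0.14, adjusted p = 0.264, and MVK at 0.10). The integrated stress response stood at a median of -0.02 (CHAC1 -0.21, SLC7A11 0.09), the unfolded protein response at -0.01 (SEC61B -0.10, SDF2L1 0.13) and the hypoxia response at -0.05 (STC1 -0.23, NDRG1 0.08). The circadian clock genes stood at 0.01 (DBP -0.12, CRY2 0.12), the NF-kB targets at 0.06 (NFKBIA -0.03, NFKBIE 0.17) and the 2 metallothionein-list genes at -0.09 (MT2A -0.22, SLC30A1 0.03). The HEK293 markers stood at -0.03, from HOXB9 at -0.05 to NEFM at 0.06. By time, the hypoxia response was lower for 20 of 24 at 3 h (median -0.145) and higher for 18 of 24 at 12 h (0.072). The NF-kB targets were higher for 8 of 8 at 3 h (0.177) and lower for 5 of 8 at 6 h (-0.218). Sterol synthesis had its lowest median at 3 h (-0.112, 16 of 23 lower). None of these genes was called.

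**Figure D2:**
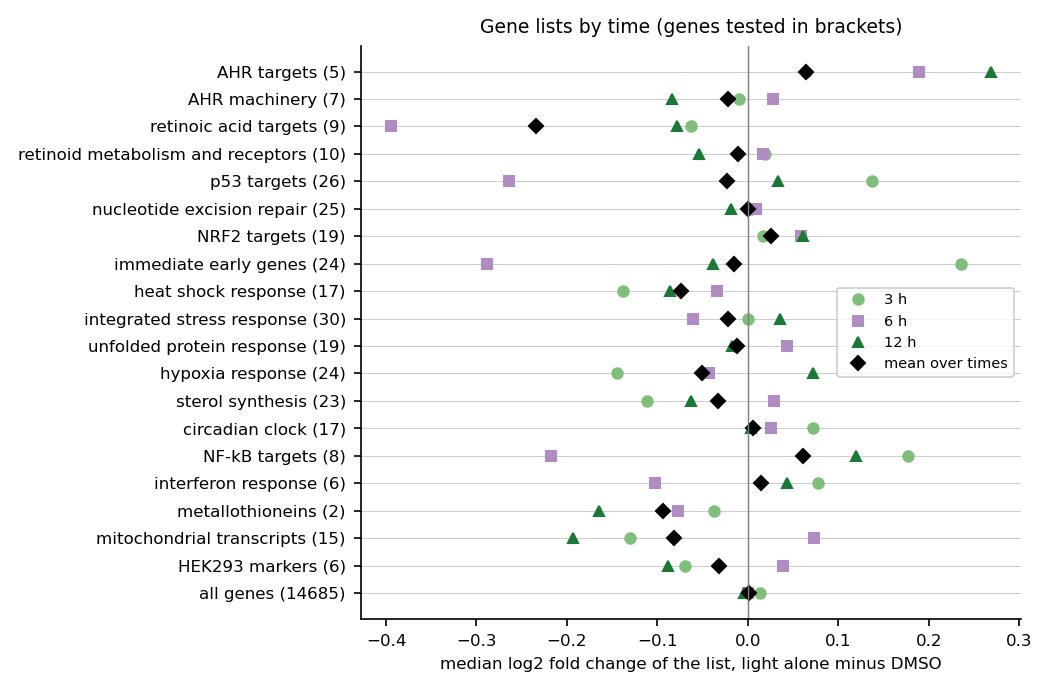
Median log2 fold change of light alone minus DMSO (horizontal axis) for each gene list and all genes, at 3 h (circles), 6 h (squares), 12 h (triangles) and for the mean over times (diamonds), with the number of genes tested in brackets. The retinoic acid targets lie farthest below 0 for the mean at -0.23. The p53 targets, immediate early genes, NF-kB targets and interferon list lie above 0 at 3 h and below at 6 h.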

How the data were processed

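The members and gene lists were chosen with earlier results of these data known. RNA from HEK293T cells was sequenced as stranded paired-end libraries. The authors deposited whole-number counts per Ensembl gene for each time, a log2 CPM table and 2 RUV factors per library, scores of unwanted variation estimated by the authors. The study lists cutadapt, TopHat and Cufflinks for its RNA-seq without saying whether these counts came from them. The genome build, counting tool and strand setting are not given in the sources used here. The deposited log2 values and scores served as alternatives only, and the RUV-transformed values were not used. Symbols were matched for 13443 of 14685 identifiers.

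Counts were normalized by TMM and tested with edgeR 4.0.16 (filterByExpr, robust quasi-likelihood F-test, Benjamini-Hochberg over 14685 genes, called at 0.05) under R 4.3.3. The 16 libraries of a time were fitted for single times, and all 48, in 12 groups of arm and time, for the mean, for differences between times and for differences with and without the probe. CPM printed here are TMM-scaled from the latter fit. Intervals came from limma 3.58.1 (log2 CPM, prior count 2), and DESeq2 1.42.0 was an alternative. Exact permutation tests were two-sided, with 70 arrangements per time and 343000 over the 3. The script was tested on simulated data. Genes named were those called, members of the AHR and retinoid lists, NCBP1, the 5 smallest p for each difference between effects, and the extremes of each other list; POU3F2 was named after its values were seen, and some genes under this rule are not reported here. Lists are described by counts and medians without a test. Library totals were 26482339 to 31999611 counts.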

Additional observations from a re-analysis of the deposited data

Results flagged for a closer look

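Among 66 groups of 4 libraries checked, 4 held a library far from its group by Dixon's ratio (its gap to the next library over the group's range), and chance flags about 1 in 20. RARB in light alone at 12 h had replicate 3 above the others (27.2 CPM, ratio 0.872). SERPINB6 in light alone at 3 h had replicate 2 above the others (50.4 CPM, ratio 0.831). DHRS3 in DMSO at 12 h had replicate 3 below the others (9.71 CPM, ratio 0.987), still above every light alone library. The total count of DMSO 3h replicate 1 was below the others (28328178, ratio 0.857).

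The light alone effect differed between times for HERPUD1 (adjusted p = 0.0141, edgeR), UGT8, SLITRK5 and ANKRD24 (0.0266 each), and TIPARP and POU3F2 (0.0346 each). It differed with and without the probe for TXNIP (adjusted p = 6.54e-09, edgeR), RARB (9.94e-08), MAP2K6 (1.14e-05), ARRDC4 (9.85e-05), XBP1 (0.000344), TIPARP (0.000381) and CYP1B1 (0.0025).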

How the results depend on the processing

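RARB and TIPARP kept their direction and call for the mean over times under all 36 alternatives tried. The 7 genes called for the mean were again called by limma-trend, RLE, DESeq2, a replicate block, the stricter or no count filter, the NCBP1 level as covariate (added after seeing the data) and the RUV factors.

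With the 2 deposited RUV factors, 858, 1797 and 1022 genes were called at 3, 6 and 12 h, 289 for the mean, 3001 between times and 276 with and without the probe. DESeq2 called 20, 133 and 20 at the single times. All 48 libraries in the fit called 3, 12 and 4. The fit of the light alone and DMSO libraries alone called 0 at 6 h and 0 between times by edgeR, where 1529 and 1969 genes were below an unadjusted p of 0.05. For the mean, 5 genes were called without 3 h, 36 without 6 h and 2 without 12 h, and 5, 3 and 2 of the 7 genes were among them. CYP1B1, FOXO3B and SERPINB6 were lost without 6 h or 12 h, LRRC39 without 3 h or 12 h, and DHRS3 without any 1 time. The cause of these differences was not tested.

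Replicate numbers gave no clear pairing of the libraries. Of 12 same-numbered pairs 3 correlated above 0.1 (range -0.537 to 0.509), and 3 libraries correlated best with their own number. The correlations were of deviations from the group mean, which cancel within a group, so they cannot exclude cultures shared between arms. The replicate block called 9 genes at 6 h and 119 between times, and changed no other count by over 1.5 times.

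Leaving out 1 library at a time gave 0 to 2 genes at 3 h, 0 to 124 at 6 h (124 without light alone replicate 4), 2 to 138 at 12 h (138 without DMSO replicate 4), 6 to 17 for the mean (17 without light alone 6h replicate 3), 0 to 535 between times and 48 to 75 with and without the probe. Without light alone 6h replicate 3 and DMSO 12h replicate 3 together, 14 genes were called for the mean, the 7 among them.

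NCBP1, not called, changed sign without 3 h (-0.070) and without 12 h (-0.089), and lay between -0.028 and 0.054 when 1 library was left out. FOXO3, not called, stood at 0.031 without 6 h, and lay between -0.024 and 0.00 when 1 library was left out. At 3 h RARB was not called when light alone replicate 3 was dropped (adjusted p = 0.0586, edgeR). With 4 libraries a group, genes of few counts have wide intervals, so missing calls bound no change.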
